A study of Rattus norvegicus with 24 samples.

Results

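The comparison described here asks what an iodine-deficient diet adds in the thyroid when perchlorate is already given. It sets 3 thyroid RNA samples from rats on the deficient diet and perchlorate water (samples 27, 29 and 30) against 3 from rats on a normal diet and perchlorate water (samples 39, 40 and 42). These are 6 of the 24 arrays of the study, and they were chosen by the diet, water and time in their labels, not by any measured value. The rats were adult male Sprague-Dawley rats. In the diet and perchlorate group the deficient diet lasted 2 months and 14 days, with perchlorate in the water for the last 14 days. The perchlorate group had the same 14 days of perchlorate on a normal diet. The dose was 95 mg of potassium perchlorate per liter of drinking water, shared by both groups. The day-14 groups on normal water were the deficient diet alone (samples 32, 33 and 34) and the untreated control (samples 43, 44 and 47). The same 4 treatments were sampled at day 1, also 3 arrays each. Nothing in the labels ties each sample to its own animal. The p-values therefore cover the spread among these samples alone, and part of it may be technical.

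The thyroid follicular cell takes up iodide through the sodium-iodide symporter, encoded by Slc5a5, and couples it to thyroglobulin, encoded by Tg. Perchlorate competes for that symporter. A diet low in iodine limits the supply itself. When thyroid hormone falls, the pituitary releases more TSH, which raises symporter expression and makes follicular cells and the gland's blood vessels grow.

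Values are log2(intensity + 16) after quantile normalization of the 24 arrays. A value of 4 stood for an intensity of 0 before normalization, and values near 4 mark the lower end of the scale after it. They are compared between samples, never between genes. Trimmed mean intensities ran from 385 to 437 over the 6 arrays and from 322 to 489 over all 24. Pairs of arrays correlated at 0.981 to 0.982 within the diet and perchlorate group, at 0.978 to 0.983 within the perchlorate group and at 0.978 to 0.983 between them. The perchlorate group correlated with the control at 0.965 to 0.975. The 3'/5' ratio of Gapdh, a sign of RNA integrity, was 3.87, 3.85 and 4.66 in the diet and perchlorate group against 3.72, 4.5 and 3.95 in the perchlorate group. For beta-actin the ratio was larger, at 10.6, 9.57 and 11.7 against 8.98, 11.9 and 10.3 in the perchlorate group. Both transcripts thus read higher at their 3' end than at their 5' end in all 6 arrays. Of the arrays used beside these, perchlorate sample 18 at day 1 stood apart, with a median absolute deviation of 0.603 from the gene medians of the other arrays against 0.138 to 0.211 for the 6 arrays compared. The tissue label was checked against its markers: Tg lay between 13.69 and 13.98 in these 6 arrays. Pth, the parathyroid hormone gene, lay between 13.47 and 13.94, so parathyroid RNA was present in all 6.

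Adding the deficient diet to perchlorate gave 1 call at day 14. A probe set of Pkp4 fell to 0.294 times its level in the perchlorate group, and no probe set rose. Pkp4 encodes plakophilin 4, a protein of cell-cell junctions related to p120 catenin. The limma model, fitted to the 12 day-14 arrays with Benjamini-Hochberg adjustment, called 1 of 31042 probe sets (0.00322%) at an adjusted p under 0.05. At an unadjusted p under 0.05 there were 1921 probe sets (6.19%), 972 of them higher (3.13%) and 949 lower (3.06%). With 1 probe set per gene, 0 of 14217 genes passed, and 1024 (7.2%) were at an unadjusted p under 0.05. Only limma was run. Over the 14217 genes the 95% interval reached a median of 0.373 on the log2 scale to either side of the estimate, and 12555 genes (88.3%) had a whole interval inside a 2-fold difference either way.

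The Pkp4 probe set read 7.71, 7.53 and 7.89 in the diet and perchlorate samples, against 9.40, 9.62 and 9.41 in the perchlorate samples. The groups did not overlap, as was true of 12.1% of all probe sets. The log2 fold change was -1.77 with a standard error (SE) of 0.15 (adjusted p = 0.00185), and the 95% interval of the fold ran from 0.234 to 0.370. On normal water the same probe set also fell with the diet: it read 8.84, 9.42 and 9.25 in the deficient diet samples, against 9.86, 10.14 and 10.03 in control samples (log2 fold change -0.84, adjusted p = 0.0223). The difference between these 2 diet effects was -0.92 and did not pass (adjusted p = 0.31). At day 1, with no test, it averaged 8.0 ± 0.13 with diet and perchlorate and 8.75 ± 0.51 with perchlorate (SD, n = 3 each). On normal water at day 1 it averaged 8.51 ± 0.46 with the deficient diet and 8.65 ± 0.55 in the control. These groups overlapped, at 8.21 to 9.03 and 8.03 to 9.05. The control group averaged 10.01 ± 0.15 at day 14, above its day-1 level.

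The 2 Pkp4 probe sets on the array disagreed. The brighter one, which stands for the gene in the counts over genes, read 10.89, 10.89 and 10.98 in the diet and perchlorate samples, against 10.69, 11.02 and 11.05 in the perchlorate samples. Its log2 fold change was -0.005 (95% interval -0.38 to 0.37, adjusted p = 0.998). Pkp4 is named because it is the single call, and was chosen after its values were seen. Which part of the Pkp4 transcript each probe set reads was not analysed here.

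**Figure D1:**
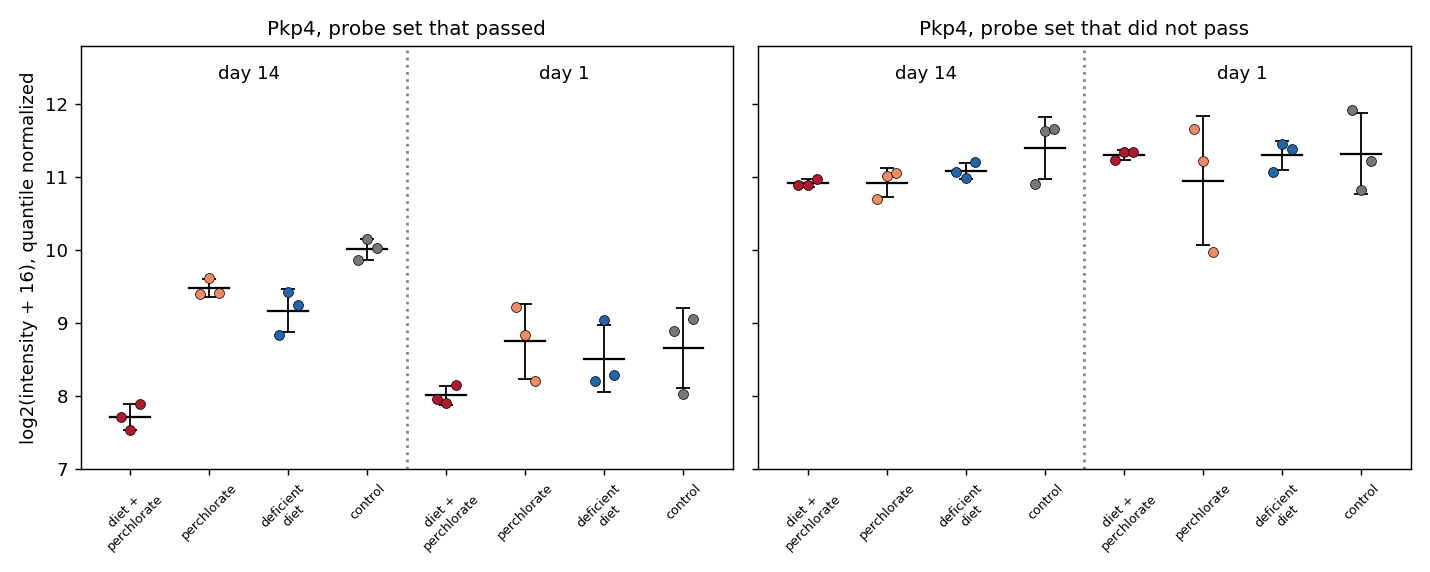
The 2 Pkp4 probe sets in all 24 arrays, as log2(intensity + 16) on the y axis, with points for samples, a line at the group mean and bars of 1 SD (n = 3); day 14 is left of the dotted line. In the left panel the 3 diet and perchlorate samples at day 14 lie between 7.53 and 7.89, below the 3 perchlorate samples at 9.40 to 9.62; in the right panel the same groups overlap.

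Of the genes that handle iodide, none passed when the diet was added to perchlorate, where 0 of all 14217 genes did. Slc5a5, the symporter, read 12.45, 12.74 and 12.75 in the diet and perchlorate samples, against 12.41, 12.65 and 12.33 in the perchlorate samples. The groups overlapped, and the fold was 1.14 with a 95% interval of 0.892 to 1.45 (adjusted p = 0.913). On normal water the diet did raise Slc5a5, to 11.85, 12.23 and 11.79 in deficient diet samples, against 11.22, 10.62 and 10.99 in control samples (log2 fold change 1.01, adjusted p = 0.0133). Both perchlorate groups thus lay above both groups on normal water. The difference between the 2 diet effects, -0.83, did not pass (adjusted p = 0.394).

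Of 19 listed genes that make thyroid hormone or handle iodide, 12 were measured and 0 passed in either direction, with log2 fold changes from -0.25 to 0.19 and a median of -0.11 (0.008 without diet and perchlorate sample 30). Tg averaged 13.94 ± 0.03 in the diet and perchlorate samples and 13.82 ± 0.12 in the perchlorate samples, a fold of 1.09 with an interval of 0.975 to 1.22. Iyd, which recovers iodide from iodotyrosines, had the smallest unadjusted p of the list, 0.0493, at a log2 fold change of -0.21. Duoxa1, needed to mature the peroxide-making oxidases, differed by -0.25, and Duox2, one of those oxidases, by -0.10. Dio1, the type 1 deiodinase, was the least settled: its fold of 0.882 had an interval of 0.492 to 1.58. Among the thyroid transcription factors, Foxe1 read 12.56, 12.61 and 12.36 with diet and perchlorate against 12.77, 12.97 and 13.16 with perchlorate. These did not overlap, but its log2 fold change of -0.46 did not pass (adjusted p = 0.61), and Nkx2-1 differed by -0.23 (adjusted p = 0.841). Among the TSH receptor and cAMP genes, 16 of 16 were measured and none passed, with a median of 0.03.

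Itih3 carried the largest response to the diet on normal water, and it was already high in the perchlorate group. Its product is one of the heavy chains of the inter-alpha-trypsin inhibitor family, which attach to hyaluronan in the matrix. It read 13.27, 13.19 and 13.39 in the diet and perchlorate samples, against 12.58, 12.20 and 13.08 in the perchlorate samples. The log2 fold change was 0.66 (95% interval 0.04 to 1.28) and did not pass (adjusted p = 0.788). On normal water Itih3 rose by 3.81 with the diet, to 11.20, 11.65 and 10.25 in deficient diet samples, against 7.20, 7.21 and 7.27 in control samples (adjusted p = 0.000222). The difference of the 2 diet effects was -3.15, with an interval that did not reach 0, and missed the threshold (adjusted p = 0.0674). Aspg, which encodes an asparaginase, followed at 0.45 with perchlorate (adjusted p = 0.871) and 3.55 on normal water (adjusted p = 0.000222), with a difference of -3.10 (adjusted p = 0.0674).

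The diet on normal water was the larger effect by count. It called 422 of 31042 probe sets (1.36%), 343 higher (1.1%) and 79 lower (0.254%). Without quantile normalization it called 583, of which 554 were higher and 29 lower. Of 14217 genes it called 282 (1.98%), 232 higher (1.63%) and 50 lower (0.352%). The 2 comparisons use different arrays but the same fit. Of the 232 genes called higher on normal water, 193 (83.2%) also had a positive difference when the diet was added to perchlorate, against 47.7% of all genes. Their median difference was 0.18 with perchlorate and 0.96 on normal water. Their median level was 9.91 with diet and perchlorate and 9.67 with perchlorate, against 9.46 with the diet alone and 8.41 in the control. Of the 50 genes called lower, 14 (28%) were positive with perchlorate, and the median was -0.07 with perchlorate and -0.79 on normal water. Both sets were chosen by their values on normal water, so their differences there are enlarged by the choice. The differences with perchlorate come from other arrays, so the 2 medians of a set are not like for like. Of the 282 genes, 0 passed when the diet was added to perchlorate, where 0 of all 14217 genes did. The contrast of the 2 diet effects called 0 of 31042 probe sets in limma, with 2239 (7.21%) at an unadjusted p under 0.05. That count was 9 after median centring, 6 without dim probe sets and 3 without perchlorate sample 40, with Itih3 among the calls in each of these 3 settings.

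**Figure D2:**
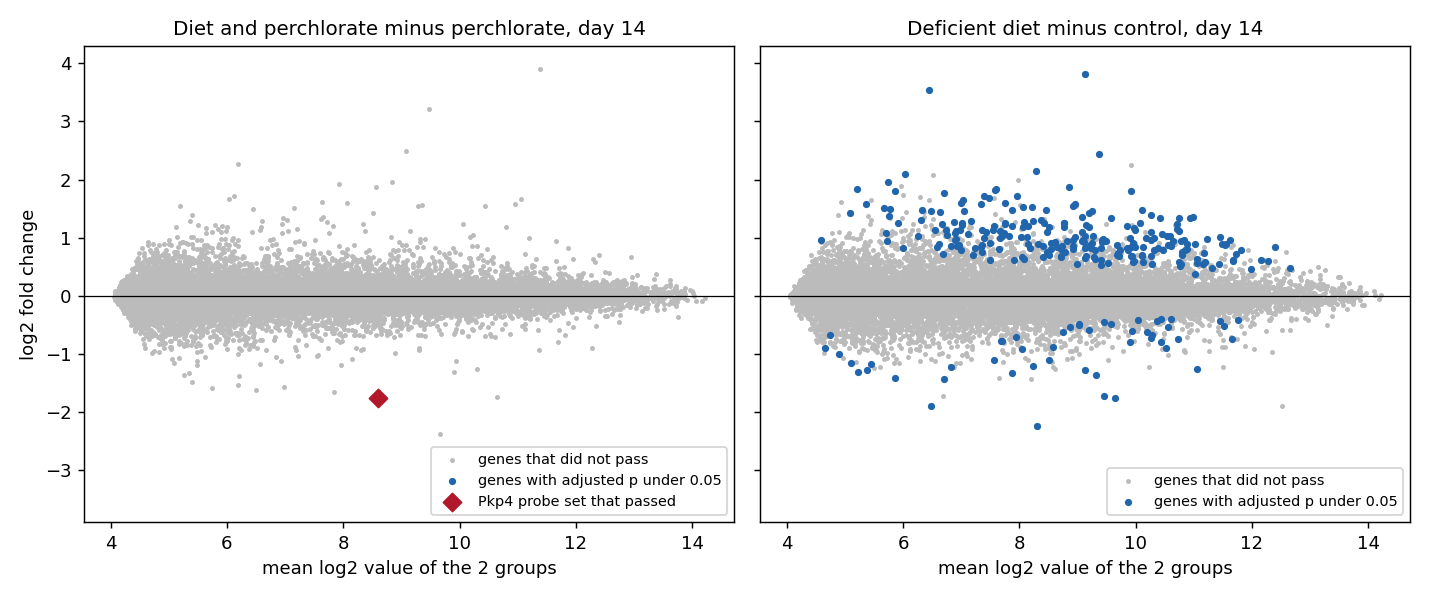
Log2 fold change (y axis) against the mean log2 value of the groups compared (x axis) for 14217 genes, with the diet added to perchlorate on the left and the diet on normal water on the right. Coloured circles passed at an adjusted p under 0.05: 0 genes on the left, where the diamond is the Pkp4 probe set that passed, and 282 genes on the right.

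Named genes of that set show the range. Mki67, the proliferation marker, averaged 9.88 ± 0.22 with diet and perchlorate and 9.55 ± 0.11 with perchlorate, a log2 fold change of 0.33 against 2.15 on normal water. Mab21l3 differed by 0.16 with perchlorate and by 1.87 on normal water. Tmod1, which caps actin filaments, differed by 1.04 with perchlorate, where diet and perchlorate sample 30 read 12.03 and the 5 other arrays lay between 9.14 and 10.22, and by 2.44 on normal water. Among the genes called lower, Stra6, a membrane receptor for retinol uptake, read 6.19, 6.18 and 5.83 with diet and perchlorate, against 6.32, 6.36 and 6.58 with perchlorate. The log2 fold change of Stra6 was -0.35 with perchlorate and -2.24 on normal water. Slc16a3, a lactate exporter, differed by -0.29 and -1.73, and Gprc5a by 0.01 and -1.76. Angpt4, an angiopoietin, and Rasal1, a regulator of Ras, had opposite signs: 0.78 and 0.62 with perchlorate against -1.36 and -1.90 on normal water. None of these differences with perchlorate passed (adjusted p of 0.728 or more).

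**Figure D3:**
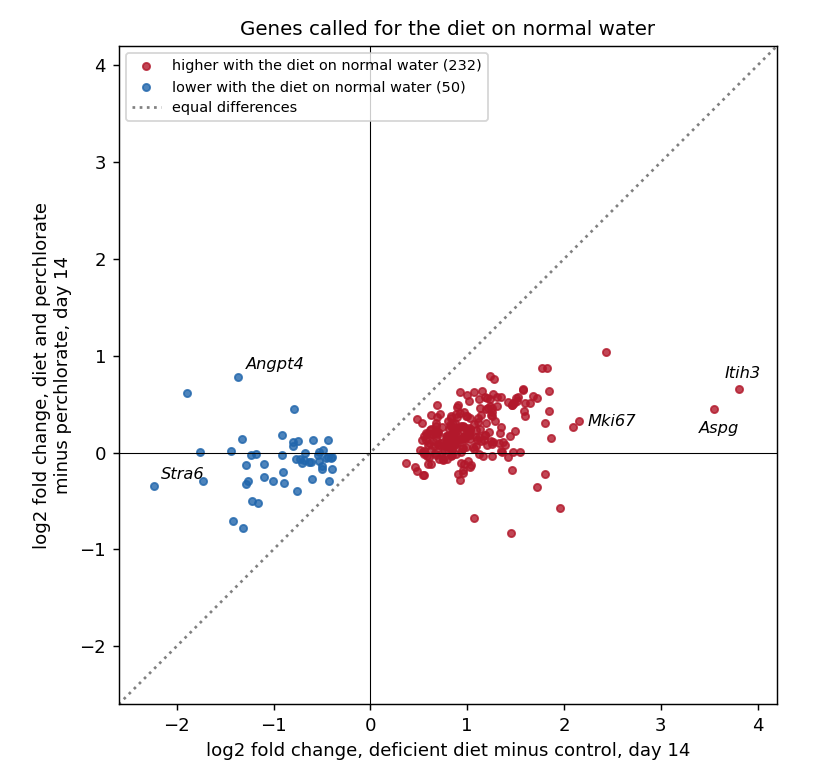
Each of the 282 genes called for the diet on normal water, by its log2 fold change on normal water (x axis) and when the diet was added to perchlorate (y axis); the dotted line marks equal differences. Most points lie close to 0 on the y axis: the median is 0.18 for the 232 genes called higher and -0.07 for the 50 called lower. The genes were chosen by their values on the x axis, which enlarges the differences on that axis.

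Across all 14217 genes the 2 diet effects at day 14 correlated at Pearson r = 0.236 and Spearman rho = 0.246. For the 9641 genes at a mean level of 7 or above, r was 0.333. Genes are not independent replicates, and the points share 1 normalization, so these are descriptions. Of the 401 genes that were higher when the diet was added to perchlorate, at an unadjusted p under 0.05 and with no overlap, 291 (72.6%) were also positive on normal water, against 46.4% of all genes. Of the 369 lower by the same measure, 123 (33.3%) were positive on normal water.

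The genes with the smallest p when the diet was added to perchlorate did not pass, and are given as values. On the positive side were Ahnak2, Pou3f1, Rab39a, Dnajb6, Igfbp2, Runx1, Vxn, Cyb561a3, Igfbp3 and Aoc1, with log2 fold changes of 0.86 to 1.58 and adjusted p of 0.276 to 0.474. Ahnak2, a large scaffold protein, read 8.56, 8.02 and 8.69 with diet and perchlorate, against 7.0, 7.23 and 7.44 with perchlorate (log2 fold change 1.20). Pou3f1, a POU-domain transcription factor, read 6.09, 5.75 and 6.43 against 4.84, 4.46 and 4.82 with perchlorate, the last 3 close to the lower end of the scale. Runx1, a transcription factor best known from blood formation, read 8.80, 8.05 and 8.22 with diet and perchlorate, against 7.50, 7.47 and 7.51 with perchlorate, and its other probe set differed by 0.98. In the groups on normal water these 3 genes differed by 0.22, 0.09 and 0.08 with the diet. Dnajb6, a co-chaperone of Hsp70, read 10.14, 9.68 and 10.36 with diet and perchlorate, against 7.96, 8.23 and 9.36 with perchlorate. Without perchlorate sample 42, the highest of its group, Dnajb6 passed, at a log2 fold change of 1.96 (adjusted p = 0.00824).

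On the negative side were Lims2, Acot1, Wac-ps1, Alox12, Pex19, Scn2a, Masp1, Lamc3, Hlf and Kctd14, with log2 fold changes of -1.09 to -0.45 and adjusted p of 0.417 to 0.61. Lims2, an adaptor of integrin adhesions, read 7.62, 7.53 and 7.68 with diet and perchlorate, against 8.22, 8.91 and 8.95 with perchlorate. Acot1, a cytosolic acyl-CoA thioesterase, read 11.50, 11.66 and 11.26 against 12.33, 12.20 and 11.93 with perchlorate. Lamc3, a laminin chain, read 7.71, 7.62 and 8.17 against 8.94, 8.38 and 8.97 with perchlorate. The groups do not overlap in these genes because they were chosen so; 13.2% of all genes showed no overlap. On normal water Lims2 and Lamc3 had positive differences with the diet, 0.41 and 0.36, and Acot1 a negative one, -0.38.

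Of the IGF-binding proteins, which carry insulin-like growth factors and limit their access to the receptor, Igfbp3 and Igfbp2 were among the larger positive values. Igfbp3 read 12.28, 10.94 and 12.04 in the diet and perchlorate samples, against 10.69, 10.18 and 9.65 in the perchlorate samples. The fold was 2.99 with an interval of 1.82 to 4.93 (adjusted p = 0.474), and its other probe set differed by 1.28. Igfbp2 read 11.99, 11.50 and 11.59 against 10.85, 10.73 and 10.53 with perchlorate, a fold of 1.99 with an interval of 1.49 to 2.66 (adjusted p = 0.417). Igfbp1 was near the lower end of the scale in both groups, at 5.0 ± 0.49 and 4.38 ± 0.04. On normal water the diet effect was 0.50 for Igfbp3 and 0.44 for Igfbp2. At day 1 the difference with perchlorate was -0.02 for Igfbp3 and -0.31 for Igfbp2, with no test. The ligands Igf1 and Igf2 differed by 0.06 and -0.08. Of the 13 measured genes of the list, 10 were positive, the median was 0.12, and none passed.

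**Figure D4:**
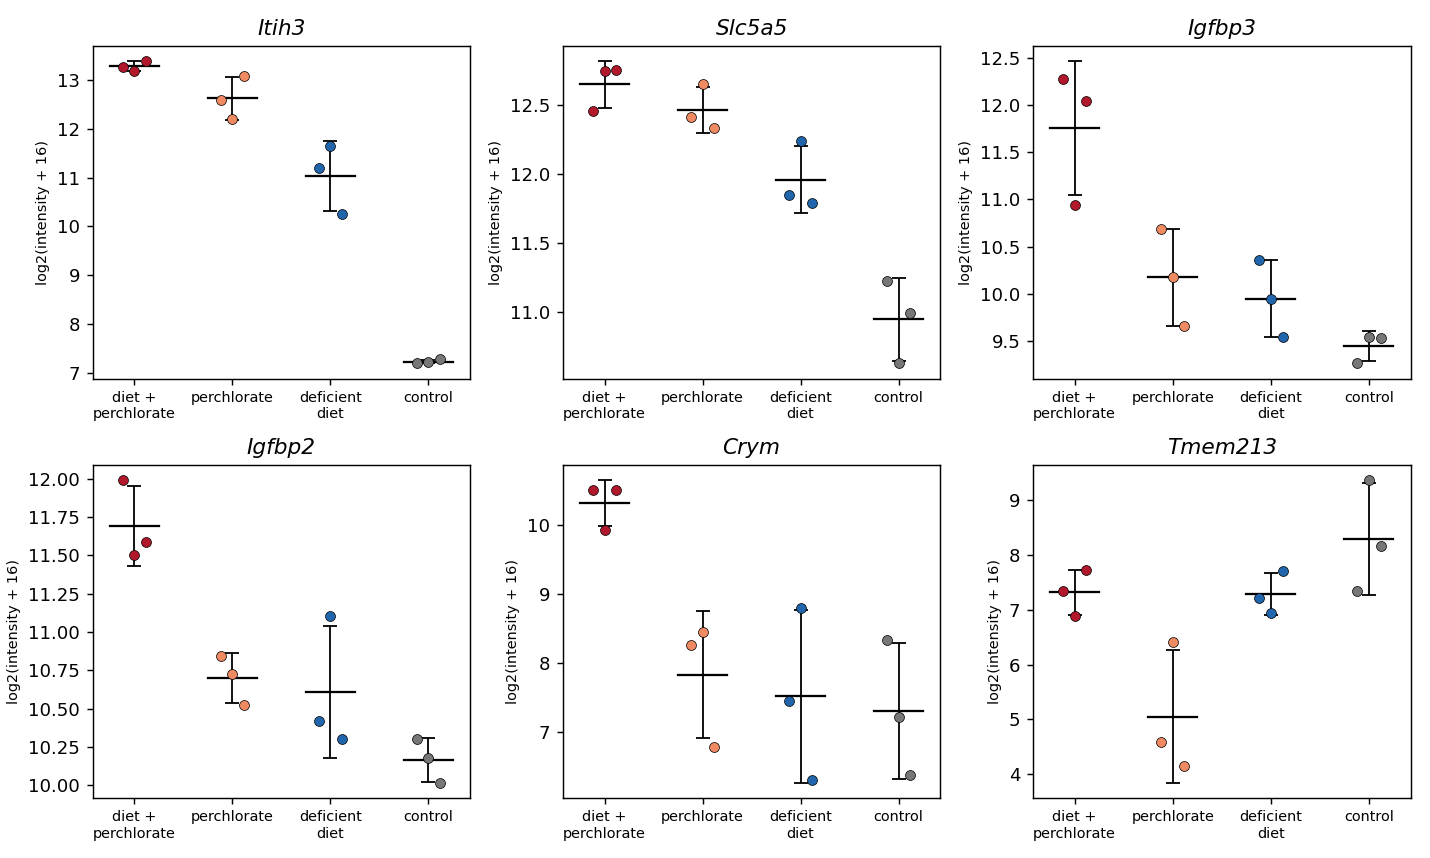
Values of 6 genes in the 12 day-14 arrays, as log2(intensity + 16), with points for samples, a line at the group mean and bars of 1 SD (n = 3); y axes differ between panels and do not start at 0. Itih3 and Slc5a5 stand high in both perchlorate groups, while Igfbp3, Igfbp2 and Crym are highest in the diet and perchlorate samples; none of the 6 passed when the diet was added to perchlorate.

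Cell-cycle genes all had positive differences without a single call. All 45 measured of 49 listed genes had a positive difference, against 6779 of 14217 genes (47.7%), with a median of 0.42 against -0.01 for all genes. At an unadjusted p under 0.05 there were 13 higher and 0 lower, where 3.71% of all genes were higher. On normal water their median was 0.73 and 16 of 45 rose, where 1.63% of all genes did. Aurkb, a mitotic kinase, read 8.41, 8.0 and 8.11 with diet and perchlorate, against 7.56, 7.57 and 7.53 with perchlorate. Its log2 fold change was 0.62 (adjusted p = 0.61). The helicase subunits Mcm3, Mcm5 and Mcm6 differed by 0.60, 0.63 and 0.54. The mean of the list was 9.03, 8.47 and 8.63 in the diet and perchlorate samples, against 8.23, 8.39 and 8.32 in the perchlorate samples, so sample 27 stood above the other 2 of its group. Without sample 27 the median was 0.23 with 43 positive, and 5 were at an unadjusted p under 0.05. That number was 6 without perchlorate sample 42, 20 without diet and perchlorate sample 29, 4 on the values as deposited and 1 in a fit over all 24 arrays. At day 1 the list's median difference was -0.03. In whole tissue, fewer cells of a type and less RNA per cell cannot be told apart, and this holds for each list below.

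Other lists of the growing gland gave smaller values, and none of their members passed. The extracellular matrix list had 26 of 31 positive and a median of 0.24, led by Bgn, the proteoglycan biglycan, at 0.80, Col12a1 at 0.79 and Lox, a collagen crosslinker, at 0.76. The dimmer Col12a1 probe sets, near the lower end of the scale, differed by 0.03 and -0.29, and the dimmer one of Lox by 0.55. Without perchlorate sample 40 the matrix count was 15 of 31 and the median -0.01. Col18a1 of the basement membrane read 11.07, 10.27 and 10.72 with diet and perchlorate, against 9.94, 9.25 and 9.86 with perchlorate, a log2 fold change of 1.00 (adjusted p = 0.681). Over the 17 measured basement membrane genes 11 were positive and the median was 0.02, and 7 and -0.06 without perchlorate sample 40. Endothelial genes had 13 of 20 positive and a median of 0.06, against 0.64 on normal water. Without perchlorate sample 40 that count was 6 of 20 and the median -0.06. Flt1, a VEGF receptor, differed by 0.85, Vwf by 0.57 and Plvap by -0.15. The summed intensity of the endothelial list ran from 45889 to 50443 with diet and perchlorate and from 38458 to 52657 with perchlorate. Smooth muscle and pericyte genes had 12 of 12 positive, with a median of 0.28, and 7 of 12 without perchlorate sample 40. Among the immediate early genes, Fos read 10.23, 9.67 and 10.08 with diet and perchlorate, against 9.17, 8.86 and 9.50 with perchlorate (log2 fold change 0.82, adjusted p = 0.61), and its dimmer probe set differed by -0.21.

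Among genes of energy metabolism and of daily rhythm, none passed. Mitochondrial respiratory chain genes had 24 of 26 positive, 13 of them with no overlap (6.38% of all genes), but the median was only 0.17. Ndufs1 of complex I led with 0.36 (adjusted p = 0.61). On normal water the list's median was 0.03. Hk1, the hexokinase that starts glycolysis, differed by 0.51, in a list with 12 of 20 positive and a median of 0.02. The circadian clock list was mixed, with 7 of 16 genes positive and a median of -0.08, against -0.01 for all genes. Of the 16, 5 were lower at an unadjusted p under 0.05, against 3.49% of all genes. They were Hlf, Nr1d1, Nr1d2, Per3 and Dbp, at -0.93, -0.89, -0.72, -0.58 and -0.47. The dimmer Per3 probe set differed by 0.15, while the dimmer ones of Hlf and Nr1d2 were negative. Hlf, a transcription factor of the clock's output, read 8.75, 8.75 and 9.02 with diet and perchlorate, against 9.26, 10.12 and 9.92 with perchlorate. Cry1 differed by 0.61 and Per2 by 0.29. The hour of collection was not given in the sources used here. Ribosome biogenesis genes had 7 of 30 positive (2 of 30 without perchlorate sample 42) and a median of -0.09, with Rrp12 at -0.67. The dimmer Rrp12 probe sets differed by only -0.10 and -0.12.

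Among thyroid hormone responsive genes and receptors, 11 of the 12 measured were negative and Crym was strongly positive. Klf9, a direct target of the hormone receptors, read 11, 10.98 and 11.05 with diet and perchlorate, against 11.29, 11.44 and 11.48 with perchlorate, a log2 fold change of -0.39 (adjusted p = 0.61). The 2 dimmer Klf9 probe sets differed by 0.03 and 0.06. Thrsp, a regulator of fat synthesis, differed by -0.93, the receptor gene Thrb by -0.58 and the corepressor gene Hr by -0.54. Crym encodes mu-crystallin, a cytosolic protein that binds thyroid hormone. It read 10.51, 9.94 and 10.52 with diet and perchlorate, against 8.27, 8.46 and 6.78 with perchlorate. The fold was 5.61 with an interval of 2.19 to 14.3, and it did not pass (adjusted p = 0.61). On normal water the diet effect on Crym was 0.21, with arrays spread from 6.31 to 8.80. Thrsp also belongs to adipose tissue, whose markers were high in perchlorate sample 42.

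**Figure D5:**
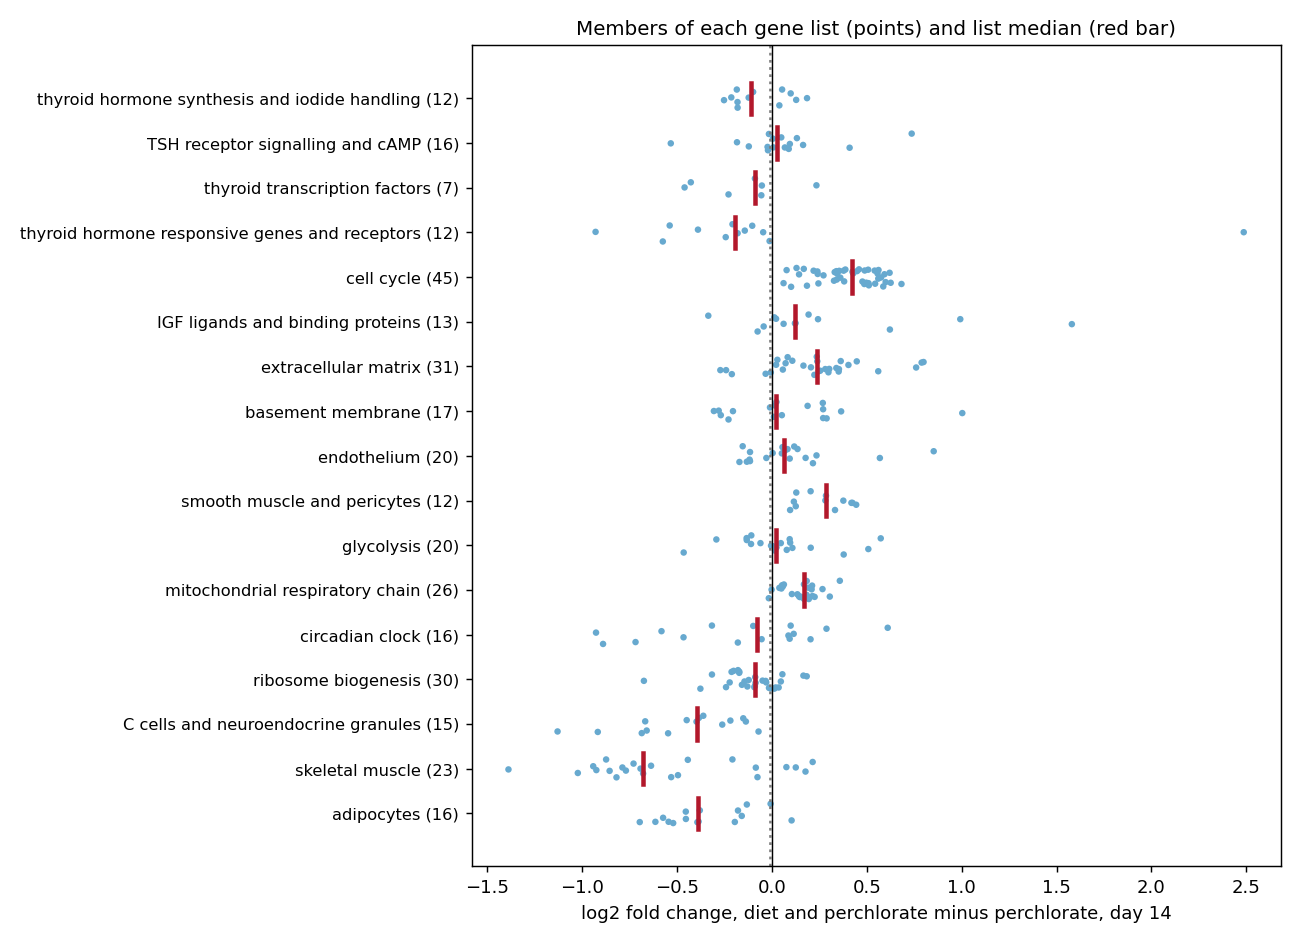
Log2 fold change when the diet was added to perchlorate (x axis) for each measured member of 17 gene lists (points), with the list median as a red bar and the median of all genes as a dotted line; the number measured is in parentheses. The cell-cycle list lies wholly above 0 with a median of 0.42, the C-cell list wholly below 0 with a median of -0.40, and no member of any list passed.

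Over all 35 lists no measured member passed, where 0 of all 14217 genes did. In the list of epithelial surface genes, 5 of 21 were higher and 2 lower at an unadjusted p under 0.05, where 3.71% of all genes were higher and 3.49% lower. Without diet and perchlorate sample 27 it was 3 higher and 1 lower. Slpi, a secreted protease inhibitor, differed by 1.96, Lcn2, an iron-siderophore carrier, by 1.27 and Muc1, a membrane mucin, by -0.70. Among retinoid genes, with 11 of 17 positive, Cyp26b1, which breaks down retinoic acid, differed by 1.18 and Crabp2, which carries it, by 0.67 (adjusted p = 0.61). The dimmer Cyp26b1 probe set differed by 0.37. Uroc1, an enzyme of histidine breakdown, read 9.44, 8.55 and 10.53 with diet and perchlorate, against 8.69, 7.48 and 6.72 with perchlorate, and differed by 2.07 on normal water; neither passed. Among the hyaluronan and Itih genes, Vcan, the proteoglycan versican, differed by 0.96 and Itih1 by -0.75, opposite in sign. Of the NRF2 targets, 14 of 27 were positive with a median of 0.01, and Slc7a11, a cystine importer, differed by 1.19. Folding genes of the endoplasmic reticulum had a median of 0.04, lysosomal genes -0.01 and cholesterol synthesis genes 0.07. Interferon-response genes had 5 of 18 positive and a median of -0.07, but 14 of 18, a median of 0.34 and 6 higher at an unadjusted p under 0.05 without perchlorate sample 42. Without perchlorate samples 39 or 40 that median was -0.30 and -0.31. MHC class II genes had 10 of 13 positive and a median of 0.37. Their mean log2 values overlapped, at 9.54 to 9.82 with diet and perchlorate and 9.50 to 9.95 with perchlorate. The probe sets of RT1-Bb disagreed in sign, at -1.66 for the brighter and 2.19 for the dimmer. Macrophage and mast cell genes had 15 of 21 positive and a median of 0.14, but 10 of 21 and -0.005 without diet and perchlorate sample 27, and 10 of 21 also without perchlorate sample 40. Angiogenesis signals had 17 of 27 positive and a median of 0.16, and 14 of 27 and 0.04 without perchlorate sample 40. Cartilage genes had 4 of 8 positive. Blood genes had 4 of 6 positive, and 2 of 6 without diet and perchlorate sample 30 or perchlorate sample 40. Among the lists with medians near 0, leaving out 1 sample also turned the sign for lysosomal genes, NRF2 targets, glycolysis genes and cartilage genes.

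Markers of neighbouring tissues differed between single arrays. Skeletal muscle genes had 4 of 23 positive and a median of -0.68, but 16 of 23 and a median of 0.29 without perchlorate sample 42. Their summed intensity ran from 7867 to 10517 with diet and perchlorate and from 6527 to 29306 with perchlorate, where sample 42 was the highest. Adipocyte genes had 1 of 16 positive and a median of -0.39, and 10 of 16 without sample 42, with sums of 6277 to 7964 with diet and perchlorate and 6151 to 17295 with perchlorate. Lymphocyte genes had 12 of 13 positive and 5 of 13 without diet and perchlorate sample 29, where Cd8a read 8.51 against 4.82 to 5.90 in the 5 other arrays. Their sums ran from 1514 to 5736 with diet and perchlorate and from 1317 to 1781 with perchlorate. Airway and squamous epithelium genes had 8 of 14 positive and a median of 0.01, and their mean log2 values overlapped, at 6.82 to 6.98 with diet and perchlorate and 6.4 to 6.86 with perchlorate. Their summed intensity did not overlap, at 7677 to 12799 with diet and perchlorate and 4201 to 7615 with perchlorate. Members with high values weigh most in that sum. Among them were the keratin genes Krt8, at a mean of 12.04 against 11.55 with perchlorate, and Krt18, at 11.33 against 10.92, and neither passed. Which cells these keratin transcripts came from was not tested, so the sum is not a measure of airway tissue alone. Bpifa1, an airway secretory protein of that list, read 11.18, 9.94 and 12.13 with diet and perchlorate, against 8.74, 7.66 and 7.18 with perchlorate. Of these lists, Myl2 of muscle, Lep of adipocytes and Scgb3a1 of airway stayed below 5 on all 6 arrays, and no lymphocyte marker did. The part of these markers in the results above was not tested, beyond the values without a sample.

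C cells, the calcitonin-making cells of the thyroid, had all 15 measured genes negative, where 47.7% of all genes were positive, with a median of -0.40. At an unadjusted p under 0.05, 4 of 15 were lower, where 3.49% of all genes were. Calcb, a calcitonin-related peptide gene, read 9.13, 9.90 and 9.08 with diet and perchlorate, against 11.07, 10.58 and 9.86 with perchlorate (log2 fold change -1.13, adjusted p = 0.61). Scg2, a granule protein, differed by -0.92, while Calca differed by -0.14 and Chga by -0.07. On normal water the list's median was -0.88, and none passed there either. The count at an unadjusted p under 0.05 was 10 without perchlorate sample 42, 9 without diet and perchlorate sample 29 and 2 without any one of the other 4 samples. Parathyroid genes had 2 of 5 positive, and 0 to 4 of 5 when each sample was left out. The summed C-cell intensity ran from 28562 to 43348 with diet and perchlorate and from 31185 to 47371 with perchlorate, so the groups overlapped.

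Among the largest differences by size were genes whose samples split within a group and genes whose groups lay apart. Fam111a and Hp were named after their values were seen. Fam111a, a protease linked to DNA replication, read 13.76, 13.24 and 13 with diet and perchlorate, against 7.64, 7.75 and 12.92 with perchlorate. A comparable split appeared within the deficient diet group, at 13.19, 13.91 and 7.63, while control samples were at 13.88, 13.27 and 13.26. Its log2 fold change of 3.90 had an SE of 1.52 (adjusted p = 0.736). Tmem213 read 7.34, 6.90 and 7.73 with diet and perchlorate, against 4.59, 6.42 and 4.14 with perchlorate, a log2 fold change of 2.27 (adjusted p = 0.61). On normal water it differed by -1.0, with control samples at 7.34, 9.37 and 8.16, so the perchlorate group alone lay low. On the negative side Hp, the haptoglobin gene, read 11.06, 7.23 and 7.15 with diet and perchlorate, against 10.19, 10.77 and 11.63 with perchlorate, and the groups overlapped.

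At day 1 the 3'/5' ratio of Gapdh was 10.3, 6.09 and 5.42 with diet and perchlorate, against 3.93, 4.09 and 7.16 with perchlorate. The diet and perchlorate group at day 1 was set against the perchlorate group without a test, because perchlorate sample 18 stood apart. There, 315 genes (2.22%) differed at least 2-fold, 143 higher and 172 lower, and 372 without sample 18, against 88 genes (0.619%) at day 14. The genes called for the diet on normal water at day 14 were shifted at day 1 too. Of the 232 called higher, 197 (84.9%) were positive at day 1, with a median of 0.51, against 44.8% of all genes. Itih3 averaged 10.75 ± 0.52 with diet and perchlorate and 7.27 ± 0.23 with perchlorate at day 1, a difference of 3.48, against 0.66 at day 14. Slc5a5 averaged 12.01 ± 0.07 with diet and perchlorate and 11.89 ± 0.35 with perchlorate at day 1, a difference of 0.12. Itih3 was the 1 probe set called (0.00322%) when the day-14 difference was tested against that at day 1, in a fit of 24 arrays added after seeing the data, with 2863 (9.22%) at an unadjusted p under 0.05. Without perchlorate sample 18 and control sample 22, the other day-1 array that stood apart, the Itih3 difference was -2.88, against -2.82 with them, and the call was lost (adjusted p = 0.0692). Across all genes the day-14 and day-1 differences correlated at r = 0.0478.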

How the data were processed

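Total RNA from 24 rat thyroid samples, 3 per group, was hybridised to 24 one-colour Affymetrix arrays. The deposited table holds 1 linear intensity per probe set and array, which the authors computed with GCOS per the submitters' processing notes; its version, settings and scaling target are not given in the sources used here. No detection calls were used, so signal over background is unknown. Precision is limited by the array number.

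From these, log2(intensity + 16) was quantile normalized over 24 arrays in R 4.3.3, and 57 of 31099 probe sets, all controls, were left out. limma 3.58.1 was fitted to the 12 day-14 arrays (4 group means, eBayes with a mean-variance trend, two-sided tests, Benjamini-Hochberg over 31042 probe sets). Every adjusted p is from limma, and from this fit unless the text names other arrays or an alternative. A call is an adjusted p under 0.05. SD is over 3 arrays. Fold changes on this scale understate changes of dim probe sets. Only the limma step was run on simulated data, with noise independent between probe sets, and its recovery rate is not reported here.

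Symbols came from the platform annotation: 20826 probe sets had 1 symbol, 436 several and 9780 none. RefSeq held 20758 of them by Entrez number and changed 0. The annotation names no build, so no coordinates are given. A gene is represented by its brightest probe set. The 35 lists held 712 genes, of which 636 were measured.

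The members and lists were chosen with earlier results of these data known. Named genes are those passing with no overlap, up to 15 each way, filled to 10 by smallest unadjusted p with no overlap; the 8 largest called each way on normal water; all measured iodide-handling genes; and up to 4 of each list by p, fewer where values would repeat. Other genes were chosen after their values were seen. Alternatives were the values as deposited, median centring, pseudocounts of 1 and 64, leaving out probe sets below the 40th percentile, other sets of arrays, array weights, no trend, averaging a gene's probe sets, and leaving out each sample. The day-14 minus day-1 contrast, fitted to 24 arrays, was added after seeing the data.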

Additional observations from a re-analysis of the deposited data

Results flagged for a closer look

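Itih3 was flagged because its diet effect with perchlorate differed between day 14 and day 1 in a test of the difference itself. The day-14 effect minus the day-1 effect was -2.82 on the log2 scale (adjusted p = 0.0183 in limma over 24 arrays), the single call among 31042 probe sets (0.00322%). At an unadjusted p under 0.05 there were 2863 (9.22%). Itih3 was higher with diet and perchlorate in all 3 samples at both times, at 13.28 ± 0.10 and 12.62 ± 0.44 at day 14 and at 10.75 ± 0.52 and 7.27 ± 0.23 at day 1 (diet and perchlorate, then perchlorate; SD, n = 3). Without the 2 day-1 arrays that stood apart, perchlorate sample 18 and control sample 22, the difference was -2.88 and missed the threshold (adjusted p = 0.0692), and 0 probe sets were called. The contrast was chosen after seeing the data.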

How the results depend on the processing

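The single call for the diet added to perchlorate was 1 probe set under each alternative that kept all 6 samples, and 1 to 3 when each sample was left out (2 without perchlorate sample 39, 3 without perchlorate sample 42, when Dnajb6 was added at 1.96). The Pkp4 probe set was called in each of these settings, with adjusted p of 0.000684 to 0.0463, but the mean of both Pkp4 probe sets, -0.885, was not (adjusted p = 0.167). For the diet on normal water, 422 probe sets became 642 without dim probe sets, 249 with no trend, 151 on the 6 arrays compared, 21 in a fit of all 24 arrays and 134 in that fit less the 2 outlying day-1 arrays. Leaving out 1 sample gave 46 to 416: 46 without deficient diet sample 33, 118 without sample 32, and 198 to 212 without a control sample (43, 44 or 47). The contrast of the 2 diet effects, at 0, became 9 after median centring, 2 with a pseudocount of 1, 6 without dim probe sets, 1 in a fit of 24 arrays, 3 without the 2 day-1 arrays and 0 to 3 when a sample was left out (3 without perchlorate sample 40). The day-14 minus day-1 contrast, at 1, gave 4 on the values as deposited and 0 without the 2 day-1 arrays. On the values as deposited the median of all probe sets was -0.07 for the diet added to perchlorate. Of 3117 pairs of a named gene and an alternative, 3075 kept direction and call, 40 changed sign without being called, and none that was called reversed. Only the Pkp4 probe set was called to begin with, so for the other genes these counts speak of direction and little else. Sizes could move within a kept direction: Rab39a ran from 0.31 to 2.74 and Scn2a from -2.56 to -0.28 over the alternatives. No paired analysis was possible because no replicate number is shared between the groups. Signal over background was not known, so values near 4 have no settled level.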
